A study of Homo sapiens with 10 samples.

Results

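Keratins and vimentin are among the proteins of the cytoplasmic intermediate filaments. The genes examined over all 5 groups of the series were 7: KRT5, KRT10, KRT15, KRT17, KRT18, KRT19 and VIM. A gene was taken where the values held a probe set annotated with that gene symbol alone. This gave 6 probe sets, out of 16376 in all, for 5 genes: 1 each for KRT5 (201820_at), KRT15 (204734_at), KRT18 (201596_x_at) and KRT19 (201650_at), and 2 for VIM (201426_s_at and 1555938_x_at). KRT10 and KRT17 had no such probe set and were not analysed here. RNA was measured on 10 U133 Plus 2 arrays, 2 per group, and each value is a log2 signal.

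All cells derived from T47D, a luminal human breast cancer cell line. T47D-Y cells lack progesterone receptors (PR), and their 2 arrays were of vehicle-treated cells. The WT PR-A line is T47D-Y stably transfected with a vector for the A isoform of PR. The PR-A K388R line carries a vector for the same isoform with the lysine that accepts SUMO replaced by arginine. Each PR-A line was treated for 24 h with ethanol vehicle or with 10 nM R5020, a synthetic progestin. Every receptor form stands for 1 stably transfected line, so the receptor and the line cannot be told apart. T47D-Y cells given R5020 were not analysed here. Nothing in the labels ties the replicates to cultures grown apart, and the p-values then cover only the spread between these arrays, which may be technical.

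Keratin filaments are built from pairs of a type I (acidic) and a type II (basic) keratin, and the pair in use marks the kind of epithelial cell. Luminal cells of the breast use KRT18 and KRT19 with KRT8, whereas basal cells use KRT5 with KRT14, KRT15 or KRT17. Vimentin is the type III filament protein of mesenchymal cells, and progestins can induce KRT5 in a subset of T47D cells. Arrays of whole cultures cannot tell fewer cells of a type from less RNA per cell.

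Among protein-coding genes in the GRCh38.p14 gene table, KRT15 and KRT19 are next to each other on chromosome 17. KRT18 lies next to KRT8, its type II partner, on chromosome 12, KRT5 lies between KRT6A and KRT71 on the same chromosome, and VIM is on chromosome 10. RefSeq sequence upstream of the annotated start was at hand for KRT5 and VIM, and not for KRT15, KRT18 or KRT19. It is shown 5′ to 3′ on the strand of the gene (GRCh38.p14, with capitals for a GC box).
KRT5 (chr12:52520395-52520644, minus strand): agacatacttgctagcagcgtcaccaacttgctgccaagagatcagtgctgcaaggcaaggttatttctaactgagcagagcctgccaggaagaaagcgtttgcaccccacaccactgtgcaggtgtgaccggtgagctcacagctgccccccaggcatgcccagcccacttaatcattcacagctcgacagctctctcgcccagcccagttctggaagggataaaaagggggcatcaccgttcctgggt
VIM (chr10:17227991-17228240, plus strand): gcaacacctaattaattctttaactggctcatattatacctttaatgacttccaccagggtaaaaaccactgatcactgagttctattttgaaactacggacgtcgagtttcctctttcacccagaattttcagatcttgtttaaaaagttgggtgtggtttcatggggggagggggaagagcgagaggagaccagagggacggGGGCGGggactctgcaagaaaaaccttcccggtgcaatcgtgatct
The 250 bases were searched on both strands for the TATA box letters TATAAA, the GC box GGGCGG and AGAACA, a half-site bound by progesterone receptors. The only match was the GC box of VIM, which begins at position -46 from the annotated start. Among 35116 promoters of the same table, windows of that length held these letters in 10.7%, 42.6% and 12.4%, respectively. No match says only that these letters are not in these windows.

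Signals of the 5 genes spanned most of the range of the arrays, whose lower quartiles were 3.28 to 3.39, medians 4.59 to 4.69 and maxima 14.39 to 14.75. The share of probe sets with a lower signal on the same array was 99.7% to 100% for KRT18 and 98.4% to 99.7% for KRT19. For VIM (201426_s_at) it was 67.9% to 87.6%, for KRT15 38.1% to 75.1%, and for KRT5 39.1% to 53.9%. The other VIM probe set, 1555938_x_at, read 2.49 to 2.87, under the lower quartile on all 10 arrays, and was called in no comparison. VIM below means 201426_s_at. The values carry no detection calls, so neither KRT5 on any array nor KRT15 in WT PR-A cells, at or near the array medians, was shown to be above background. KRT18 lay close to the array maxima, where a change can be compressed. The suffixes _x_at and _s_at mark probe sets whose probes can match more than 1 transcript, so the KRT18 and VIM signals may include related sequences.

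**Figure D1:**
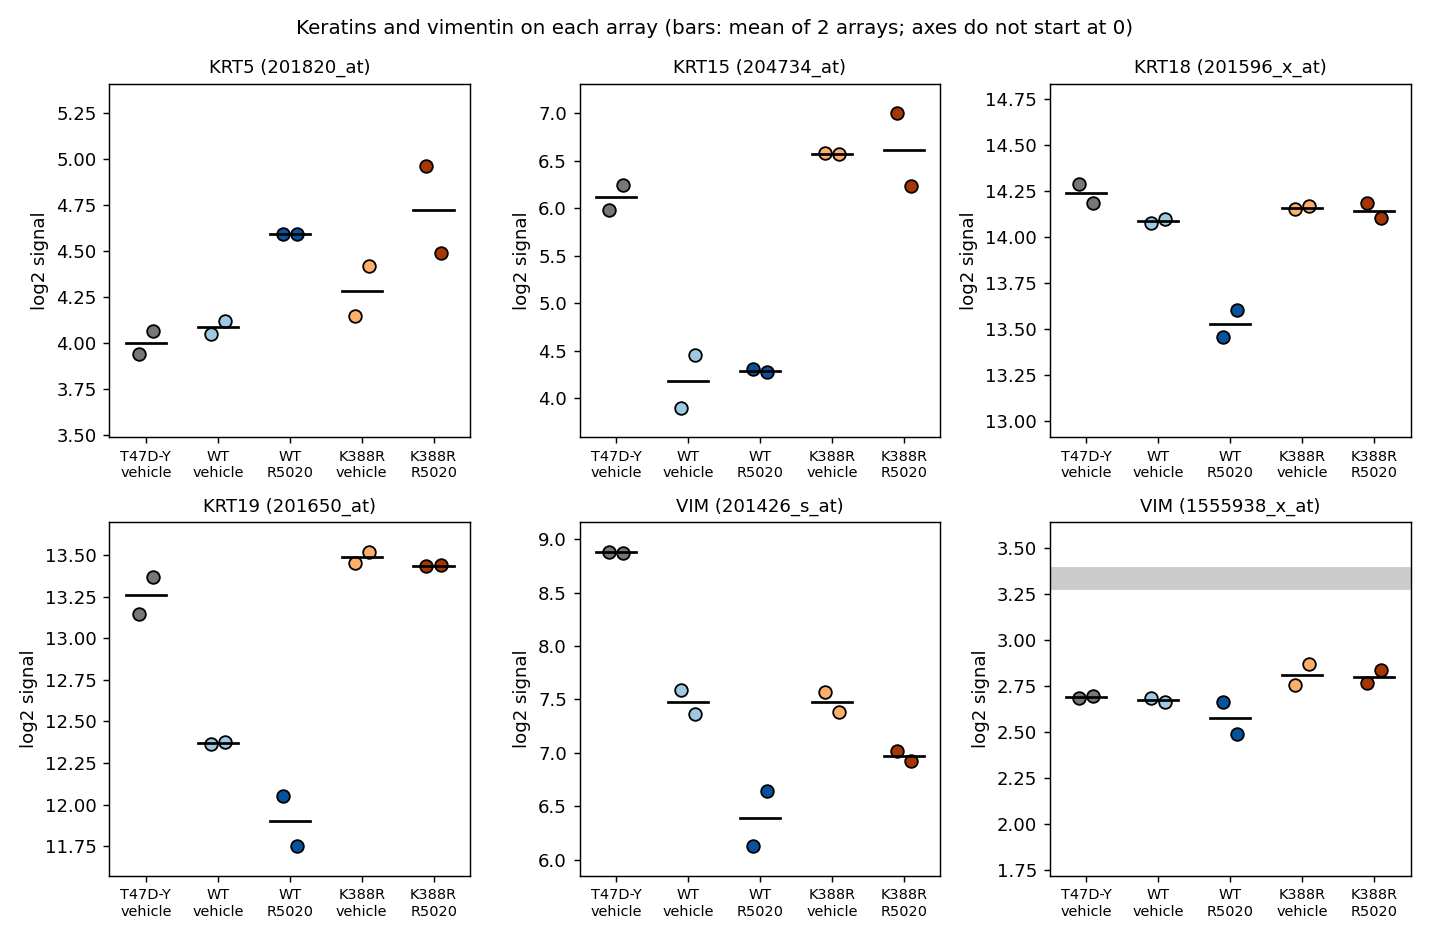
Log2 signal (y axis) of each probe set on each array, by group (x axis), with a bar at the mean of the 2 arrays of a group. The grey band in the panel of 1555938_x_at spans the lower quartiles of the 10 arrays, 3.28 to 3.39. KRT15 and KRT19 are low in both WT PR-A groups, and VIM is highest in T47D-Y cells. The KRT5 mean is higher with R5020 in both PR-A lines, but is called in neither and not shown to be above background.

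The labelled cell type was checked first. Of 13 genes fixed as markers of luminal breast epithelium, 9 were measured, with array means of 9.66 to 10.65. None of the 9 was under the lower quartile in any group. KRT18 (13.45 to 14.29) and KRT19 (11.75 to 13.52), themselves examined here, are among the 9 and raise these means. EPCAM, the epithelial adhesion molecule, read 11.09 to 11.77, and TFF1, also on this list, 4.17 to 5.88. Of 15 basal genes, 8 were measured, KRT5 among them, with array means of 6.19 to 6.56. None of these was under the lower quartile in any group either, and CDH3 read 8.03 to 9.76. The count under the quartile thus does not separate luminal from basal cells. Of 10 fibroblast genes, 8 were measured, with array means of 4.31 to 4.71. COL1A1 (6.11 to 9.59), COL1A2 (4.89 to 5.49) and DCN (4.79 to 5.40) read above the array medians, LUM was under the lower quartile on all 10 arrays and PDGFRA on 7, and the other 3 were under the lower quartile on none. The 7 measured leukocyte genes had array means of 4.12 to 4.40. CD3E (5.20 to 5.77) and CD79A (5.12 to 5.59), a T cell and a B cell gene, read above the medians, and PTPRC and LYZ were under the lower quartile on all 10 arrays. R5020 raised the direct progestin targets FKBP5 and SGK1 by 3.54 and 4.31 on the log2 scale in WT PR-A cells, and by 3.56 and 4.92 in PR-A K388R cells. PDK4, the other progestin target measured, rose by 3.18 and 1.34, and its responses differed (-1.84, adjusted p = 0.0492).

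All arrays were fitted in limma with the replicate number as a block. Differences with an adjusted p (Benjamini-Hochberg over all 16376 probe sets) under 0.05 and a size of 1.5-fold or more were called. Intervals are 95%. An F-test over the 5 groups gave adjusted p-values of 0.0287 for KRT5, 1e-04 for KRT15, 0.00558 for KRT18, 6.65e-05 for KRT19 and 6.45e-05 for VIM. The highest group mean exceeded the lowest by 5.61-fold for VIM, 5.42-fold for KRT15, 3.0-fold for KRT19, 1.65-fold for KRT5 and 1.63-fold for KRT18.

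The first comparison asked which of these genes answered to R5020 in WT PR-A cells. VIM fell, and none of the keratins met both criteria. VIM read 7.59 and 7.36 with vehicle and 6.13 and 6.65 with R5020. The groups did not overlap. Here and below that says little, since with 2 arrays per group it can arise without a difference. The share of all probe sets without overlap is not given here. The difference of -1.09 ± 0.17 (SE, n = 2 per group; interval -1.47 to -0.71) was 2.13-fold, with adjusted p = 0.0032. Unmoderated contrasts of the same model gave an adjusted p of 0.107, so this call rests on the variance that limma shares between probe sets.

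KRT18, the main type I keratin of simple epithelia, read 14.07 and 14.09 with vehicle and 13.45 and 13.60 with R5020 in WT PR-A cells. Both R5020 arrays lay below every other array of the series. The difference of -0.56 ± 0.11 (interval -0.80 to -0.31) had an adjusted p of 0.0118 but was 1.47-fold, under the fold required. Under the other limma settings tried that left out no single array it was -0.58 to -0.55, with adjusted p-values of 4.56e-05 to 0.0514. KRT19, a type I keratin of luminal cells that does without the usual tail domain, read 12.37 and 12.38 with vehicle and 12.05 and 11.75 with R5020. These were again the lowest arrays of the series. The difference was -0.47 ± 0.13 (interval -0.77 to -0.17; adjusted p = 0.0651). Single R5020 arrays decided these values. Without WT PR-A R5020 replicate 1, KRT19 was called lower (-0.66, adjusted p = 0.0354) and KRT18 lost its adjusted p (-0.47, 0.117). Without replicate 2 of that group, KRT18 was called lower (-0.65, adjusted p = 0.0288) and KRT19 was at -0.28 (0.405). KRT18 also lost its adjusted p without WT PR-A vehicle replicate 1 (0.085) or 2 (0.0971).

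KRT5 read 4.05 and 4.12 with vehicle and 4.59 on both arrays with R5020 in WT PR-A cells. The difference of 0.51 ± 0.16 (interval 0.14 to 0.87) had an adjusted p of 0.106. The groups did not overlap, with the same limit as for VIM. KRT15, a basal keratin also found in stem cell compartments of several epithelia, read 3.90 and 4.45 with vehicle and 4.31 and 4.28 with R5020. The R5020 arrays lay between the vehicle arrays, and the difference was 0.11 ± 0.25 (interval -0.44 to 0.67; adjusted p = 0.89). In all, 0 of 5 genes were called higher and 1 lower, where 3.63% and 2.77% of all probe sets were. The median change of the 5 genes was -0.47, against -0.02 over all genes.

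In PR-A K388R cells none of the 5 genes was called with R5020. Calls over all probe sets were also fewer, 1.01% of probe sets higher and 0.391% lower. VIM read 7.57 and 7.39 with vehicle and 7.02 and 6.92 with R5020. The groups did not overlap, with the same limit as in WT PR-A cells. The difference was -0.51 ± 0.17 (interval -0.89 to -0.13; adjusted p = 0.268). KRT5 read 4.15 and 4.42 with vehicle and 4.96 and 4.49 with R5020. The difference was 0.44 ± 0.16 (interval 0.07 to 0.81; adjusted p = 0.328), with the lower R5020 array close to the higher vehicle array. It was 0.15 without R5020 replicate 1, 0.74 without R5020 replicate 2, 0.27 without vehicle replicate 1 and 0.61 without vehicle replicate 2.

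The luminal keratins were not called in PR-A K388R cells. KRT18 read 14.15 and 14.17 with vehicle and 14.18 and 14.10 with R5020, a difference of -0.01 (interval -0.26 to 0.23; adjusted p = 0.983). KRT19 read 13.46 and 13.52 with vehicle and 13.43 and 13.44 with R5020, a difference of -0.05 (interval -0.35 to 0.25; adjusted p = 0.953). KRT15 read 6.58 and 6.57 with vehicle and 7.0 and 6.23 with R5020, so that the R5020 arrays fell on either side of the vehicle arrays. Its difference was 0.04 (interval -0.51 to 0.59; adjusted p = 0.977). The interval leaves room for a change of 1.5-fold in KRT15. That of KRT19 does not, as far as the spread between these arrays goes. Its signals were also high, with 99.7% of probe sets below, where a change may be compressed. The interval of KRT18 is not read in this way, since its signal lay close to the array maxima. The median change of the 5 genes was -0.01, against 0.01 over all genes.

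Whether the response differed between the receptor forms was tested directly, as the PR-A K388R response minus the WT PR-A response. None of the 5 genes was called, where 0.519% of probe sets were called higher and 0.953% lower. VIM had a difference of 0.58 ± 0.24 (interval 0.04 to 1.12; adjusted p = 0.373), so its called fall in WT PR-A cells was not shown to differ from the uncalled value in PR-A K388R cells. For KRT18 the difference was 0.54 ± 0.16 (interval 0.19 to 0.89, adjusted p = 0.16), and for KRT19 it was 0.42 ± 0.19 (interval -0.01 to 0.84, adjusted p = 0.423). The KRT18 value depended on the model. Under the other limma settings tried that left out no single array it was 0.53 to 0.63, with adjusted p-values of 0.00462 to 0.227. KRT5 had -0.07 ± 0.23 (interval -0.58 to 0.45; adjusted p = 0.966). The interval for KRT15 was wider, at -0.85 to 0.71 around -0.07 (adjusted p = 0.976).

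The mean response of both PR-A lines, a contrast added after the data were seen, uses 4 arrays on each side. KRT5 was 0.47 higher with R5020 (interval 0.21 to 0.73; 1.39-fold; adjusted p = 0.034), past the adjusted p but under the fold required. All 4 R5020 arrays of KRT5 were above all 4 vehicle arrays and both T47D-Y arrays, which read 3.94 and 4.06. This order was not tested, and the share of all probe sets with such an order is not given here. VIM fell by 0.80 (1.74-fold; interval -1.07 to -0.53; adjusted p = 0.00272, and 0.101 with unmoderated contrasts). KRT18 had -0.29 (adjusted p = 0.057), KRT19 had -0.26 (adjusted p = 0.154) and KRT15 had 0.08 (adjusted p = 0.888). The share of all probe sets called was 2.2% higher and 1.45% lower, against 0 and 1 of the 5 genes. The KRT5 value rests on single arrays. Leaving out each of the 10 arrays gave 0.33 (without PR-A K388R R5020 replicate 1; adjusted p = 0.0899) to 0.62 (without replicate 2 of that group; adjusted p = 0.00626, called). The adjusted p stayed under 0.05 in 2 of these 10 fits and reached 0.135 without PR-A K388R vehicle replicate 1.

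**Figure D2:**
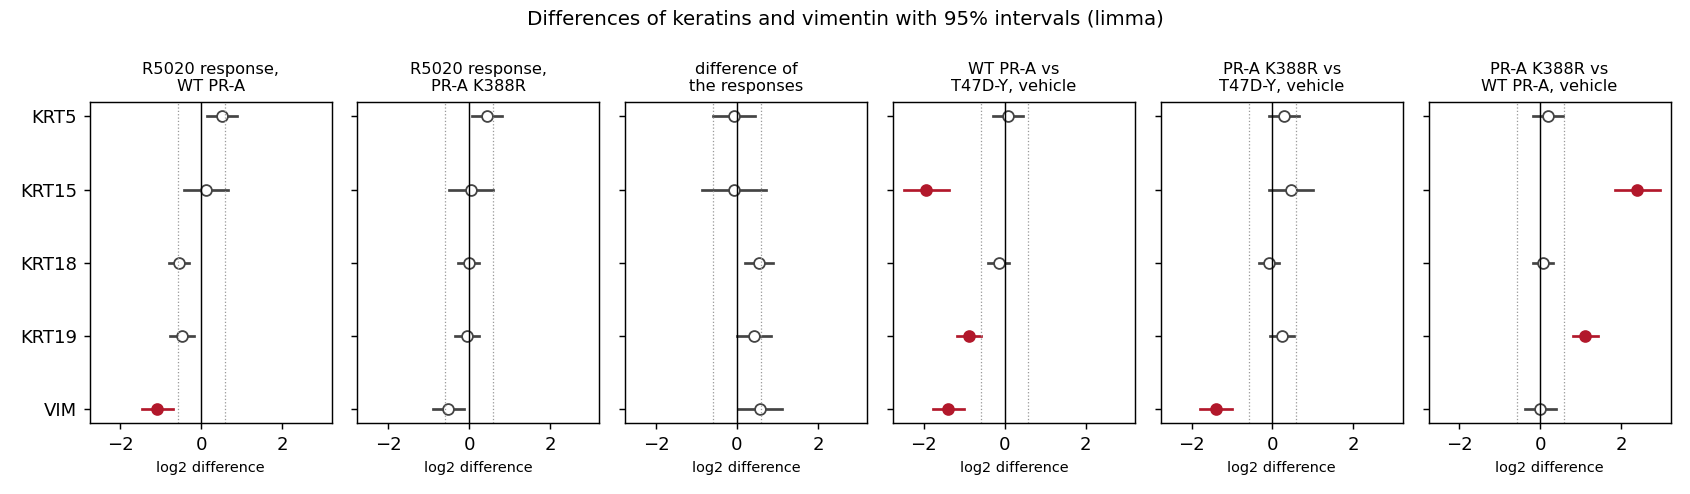
Log2 difference (x axis) of each gene in the 6 comparisons of the design, as point and 95% interval from limma, with dotted lines at 1.5-fold and called differences filled red. VIM is called lower in the WT PR-A response and in both vehicle-treated PR-A lines against T47D-Y, whereas KRT15 and KRT19 are called where vehicle-treated WT PR-A cells are compared with either other line.

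Without R5020, the 3 lines were compared with vehicle alone, and here WT PR-A cells had less KRT15, KRT19 and VIM than T47D-Y cells. KRT15 read 5.98 and 6.25 in T47D-Y cells, against 3.90 and 4.45 in WT PR-A cells. It was lower in WT PR-A cells, by a measured 3.83-fold (-1.94 ± 0.25; interval -2.49 to -1.38; adjusted p = 0.00089). The true fold may be larger, since the WT PR-A signals lay under the array medians and were not shown to be above background. KRT19 read 13.15 and 13.37 in T47D-Y cells, against 12.37 and 12.38, and was 1.85-fold lower in WT PR-A cells (-0.89 ± 0.13; interval -1.19 to -0.59; adjusted p = 0.00247). VIM read 8.88 and 8.87 in T47D-Y cells, the highest of all arrays, against 7.59 and 7.36, and was 2.64-fold lower in WT PR-A cells (-1.40 ± 0.17; interval -1.78 to -1.01; adjusted p = 0.00072).

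None of these groups overlapped, which says little, since the share of all probe sets without overlap is not given here. KRT5 (0.08, interval -0.28 to 0.45; adjusted p = 0.859) and KRT18 (-0.15, interval -0.40 to 0.10; adjusted p = 0.539) were not called; KRT18 read 14.29 and 14.18 in T47D-Y cells. Thus 3 of 5 genes were called lower and 0 higher, where 3.55% of all probe sets were called lower and 3.72% higher. The median of the 5 genes was -0.89, against 0.02 over all genes. The 5 genes were chosen with earlier results of these data known. Such counts and medians therefore do not show an enrichment of the family, in this or the other comparisons. With unmoderated contrasts the adjusted p-values were 0.0866 for KRT15, 0.0638 for KRT19 and 0.0648 for VIM, and no call was left.

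PR-A K388R cells shared the lower VIM but not the lower keratins. These comparisons use the same T47D-Y arrays. VIM was 2.63-fold lower in PR-A K388R than in T47D-Y cells (-1.40 ± 0.17; interval -1.78 to -1.01; adjusted p = 0.00202, and 0.112 with unmoderated contrasts). KRT15 had 0.46 (interval -0.09 to 1.01; adjusted p = 0.338) and KRT19 had 0.23 (interval -0.07 to 0.53; adjusted p = 0.379), both above 0 and not called. KRT5 had 0.28 (interval -0.08 to 0.65; adjusted p = 0.374) and KRT18 had -0.08 (interval -0.33 to 0.17; adjusted p = 0.744). The 1 of 5 genes called, in the lower direction, compares with 2.3% of all probe sets lower and 1.06% higher.

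Set directly against each other with vehicle, the PR-A lines differed in KRT15 and KRT19, the neighbouring type I keratin genes. KRT15 was higher in PR-A K388R than in WT PR-A cells, by a measured 5.26-fold with the same limit on the WT PR-A side (2.39 ± 0.25; interval 1.84 to 2.95; adjusted p = 0.000277). KRT19 was 2.17-fold higher (1.12 ± 0.13; interval 0.82 to 1.42; adjusted p = 0.000718). The same WT PR-A vehicle arrays, low in both genes, stand in this comparison and in the one with T47D-Y. VIM did not separate these lines (0.00, interval -0.38 to 0.39; adjusted p = 0.995), nor did KRT18 (0.07, interval -0.18 to 0.32; adjusted p = 0.746) or KRT5 (0.20, interval -0.17 to 0.57; adjusted p = 0.512). The 2 of 5 genes called higher and 0 lower compare with 2.71% and 4.72% of all probe sets. With unmoderated contrasts KRT19 kept its call (adjusted p = 0.0438) and KRT15 did not (0.0567).

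Ordered by group mean, VIM was highest in T47D-Y, then in both vehicle-treated PR-A lines, which were not separated from each other, then in PR-A K388R with R5020, and lowest in WT PR-A with R5020. KRT15 and KRT19 were highest in both PR-A K388R groups and T47D-Y, and lowest in both WT PR-A groups. KRT18 had group means close to the array maxima in 4 groups, where levels may not separate, and was lowest in WT PR-A with R5020. KRT5 was lowest in T47D-Y, followed by both vehicle-treated PR-A lines and then both R5020 groups, with none of the differences tested between these groups called.

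The genes with the most similar profile were taken by Pearson r over the 10 arrays, as a description, among 2321 genes with at least 1.5-fold between group means. KRT15 was closest to PSCA (r = 0.987), a surface antigen of prostate and other epithelia, then to DHRS3 (0.984) and ANGPT1 (0.981). KRT19 was closest to CSTB (0.985), a cysteine protease inhibitor, GRN (0.985) and FGFR3 (0.982). For VIM the nearest were CD2AP (0.990), SCCPDH (0.972) and SLC1A6 (0.972), for KRT18 ENSA (0.968), TCEA2 (0.964) and TLE2 (0.958), and for KRT5 SLC31A2 (0.940), SLC22A23 (0.939) and LOC100507336 (0.934). The arrays fall into 5 groups of 2, and all values of r share them.

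Related genes are given below as counts per list, with no test of a list. For reading them, the shares called over the whole table (higher, then lower) were 3.63% and 2.77% in the WT PR-A response, 1.01% and 0.391% in the PR-A K388R response, 3.72% and 3.55% for WT PR-A against T47D-Y, 1.06% and 2.3% for the PR-A K388R line against T47D-Y, and 2.71% and 4.72% between the PR-A lines, PR-A K388R against WT PR-A.

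Of 49 other keratin genes, 9 were measured: KRT1, KRT7, KRT31, KRT40, KRT72, KRT73, KRT74, KRT78 and KRT79. None was called in any comparison on the brightest probe set of the gene. KRT7, a type II keratin of simple epithelia, read 6.53 to 7.01 on its brighter probe set 1558393_at. Its dimmer probe set 1558394_s_at was called lower against T47D-Y in WT PR-A (-0.82, adjusted p = 0.0038) and PR-A K388R cells (-0.83, adjusted p = 0.00854), so the probe sets of KRT7 disagreed. Of 15 other intermediate filament genes, 8 were measured. LMNA, which encodes the nuclear lamins A and C, fell with R5020 in WT PR-A cells (-0.92, adjusted p = 0.00154). BFSP1, a filament protein of the eye lens, was higher with vehicle in WT PR-A cells against T47D-Y (0.78, adjusted p = 0.0339), and lower in PR-A K388R cells against WT PR-A (-0.93, adjusted p = 0.0148).

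Desmosomes and hemidesmosomes anchor keratin filaments at the membrane, and 18 of 26 listed genes of these structures and their partners were measured. With R5020 in WT PR-A cells 3 rose and 2 fell. PPL (periplakin) rose by 2.41 (adjusted p = 2.43e-05) and TRIM29, a tripartite motif protein, by 1.70 (adjusted p = 0.00438). JUP (plakoglobin) fell by 0.78 (adjusted p = 0.00208) and DST (dystonin) fell by 1.97 (adjusted p = 0.00195), and DSP (desmoplakin, the plaque protein to which keratins attach) rose by 0.95 (adjusted p = 0.0117). The list median was 0.04, close to that of all genes. None was called in PR-A K388R cells, and the response was called lower there than in WT PR-A cells for PPL (-2.45, adjusted p = 0.00197) and TRIM29 (-2.01, adjusted p = 0.0455).

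With vehicle, WT PR-A cells had 2 of the 18 anchor genes at a higher and 5 at a lower level against T47D-Y, with 11 not called and 3.72% and 3.55% called over all probe sets. Among the lower ones were ITGB4 (-0.97, adjusted p = 0.000659), the hemidesmosome integrin, and PLEC (-0.93, adjusted p = 0.000566), which links filaments to it. PPL was also lower (-1.01, adjusted p = 0.00239). ITGA6, the partner of ITGB4, was higher (0.87, adjusted p = 0.000793). None was called in PR-A K388R against T47D-Y cells. Between the PR-A lines, PR-A K388R cells had 4 at a higher and 2 at a lower level, including ITGA6 (-1.24, adjusted p = 0.000121) and ITGB4 (0.72, adjusted p = 0.00389). TRIM29 (1.76, adjusted p = 0.00362) and PPL (0.76, adjusted p = 0.0108) were also higher in PR-A K388R cells. The R5020 responses of TRIM29 and PPL thus started from unequal levels in these lines.

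Of 13 luminal genes, 9 were measured, KRT18 and KRT19 among them. With R5020 in WT PR-A cells FOXA1, a pioneer factor of luminal cells, fell by 1.46 (adjusted p = 0.000159), ERBB3 fell by 0.62 (adjusted p = 0.037), and none rose. The list median was -0.47, the value of KRT19 itself, against -0.02 over all genes. No luminal gene was called with R5020 in PR-A K388R cells or in the difference of the responses. In PR-A K388R cells the list median was -0.24, against 0.01 over all genes, and FOXA1 was at -0.61 (adjusted p = 0.0698). With vehicle, WT PR-A cells had 3 at a lower level against T47D-Y, namely KRT19, ESR1 (the estrogen receptor; -1.50, adjusted p = 0.000728) and TFF1, an estrogen target (-1.20, adjusted p = 0.000385). TFF1 (-0.83, adjusted p = 0.00818) and TFF3 (-1.11, adjusted p = 0.000979) were lower in PR-A K388R than in T47D-Y cells. Between the PR-A lines KRT19 and ESR1 (0.92, adjusted p = 0.0111) were higher in PR-A K388R cells, and TFF3 was lower (-0.95, adjusted p = 0.000987).

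Of 15 basal genes, 8 were measured, KRT5 included. With R5020, MYLK, the myosin light chain kinase of contractile cells, fell in WT PR-A cells (-0.68, adjusted p = 0.00497) and none rose. In PR-A K388R cells NGFR, a neurotrophin receptor of basal cells, rose by 1.15 (adjusted p = 0.00715). Its response was higher than in WT PR-A cells by 1.29 (adjusted p = 0.0224). NGFR read 3.53 to 4.86 over all arrays, against array medians of 4.59 to 4.69. Like KRT5, it was not shown to be above background. With vehicle, WT PR-A cells had 3 basal genes at a higher and 2 at a lower level against T47D-Y, of which ITGA6 and ITGB4 are also on the anchor list and counted there. ACTA2, smooth muscle actin, was higher (1.07, adjusted p = 0.000753), and CDH3, the P-cadherin of basal cells, was lower (-0.88, adjusted p = 0.00302). None was called in PR-A K388R against T47D-Y cells. CDH3 was higher (1.13, adjusted p = 0.000801) and ACTA2 lower (-0.68, adjusted p = 0.0101) in PR-A K388R than in WT PR-A cells, within 2 higher and 2 lower that again include ITGB4 and ITGA6.

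Of 19 mesenchymal genes, 12 were measured, VIM included. With R5020 in WT PR-A cells 3 fell, namely VIM, ITGA5, a fibronectin receptor subunit (-1.29, adjusted p = 8.15e-05), and S100A4 (-0.98, adjusted p = 0.0424), and the list median was -0.05. None was called in PR-A K388R cells, and the response of ITGA5 was higher there by 1.11 (adjusted p = 0.0095). SPARC, a matrix protein whose probe set was under the lower quartile on 8 of the 10 arrays, was lower against T47D-Y in vehicle-treated WT PR-A (-2.74, adjusted p = 6.28e-06) and PR-A K388R cells (-2.48, adjusted p = 1.37e-05). It was above that quartile in T47D-Y cells alone, so these differences depend on values near the floor of the arrays and may understate the change. Against T47D-Y the list gave 1 higher and 2 lower in WT PR-A, and 1 higher and 3 lower for the PR-A K388R line. ITGA5 was higher (1.24, adjusted p = 0.000105) in WT PR-A cells and TGFBI (1.02, adjusted p = 0.00776) in PR-A K388R cells. Between the PR-A lines, TGFBI was higher (0.77, adjusted p = 0.0138) and ITGA5 (-0.97, adjusted p = 0.000428) and TCF4 (-1.42, adjusted p = 0.00299) were lower in PR-A K388R cells.

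Among the fibroblast genes COL1A1, a fibrillar collagen, moved in 5 of the 6 comparisons. With R5020 it fell by 1.02 in WT PR-A (adjusted p = 0.0166) and by 1.11 in PR-A K388R cells (adjusted p = 0.042). With vehicle it was higher in WT PR-A cells against T47D-Y (0.82, adjusted p = 0.0417), whereas VIM was lower there, and lower in PR-A K388R than in T47D-Y (-1.08, adjusted p = 0.0245) and WT PR-A cells (-1.90, adjusted p = 0.000556). No other fibroblast gene and no leukocyte gene was called in these comparisons. The part of COL1A1-expressing cells in the VIM values was not tested.

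**Figure D3:**
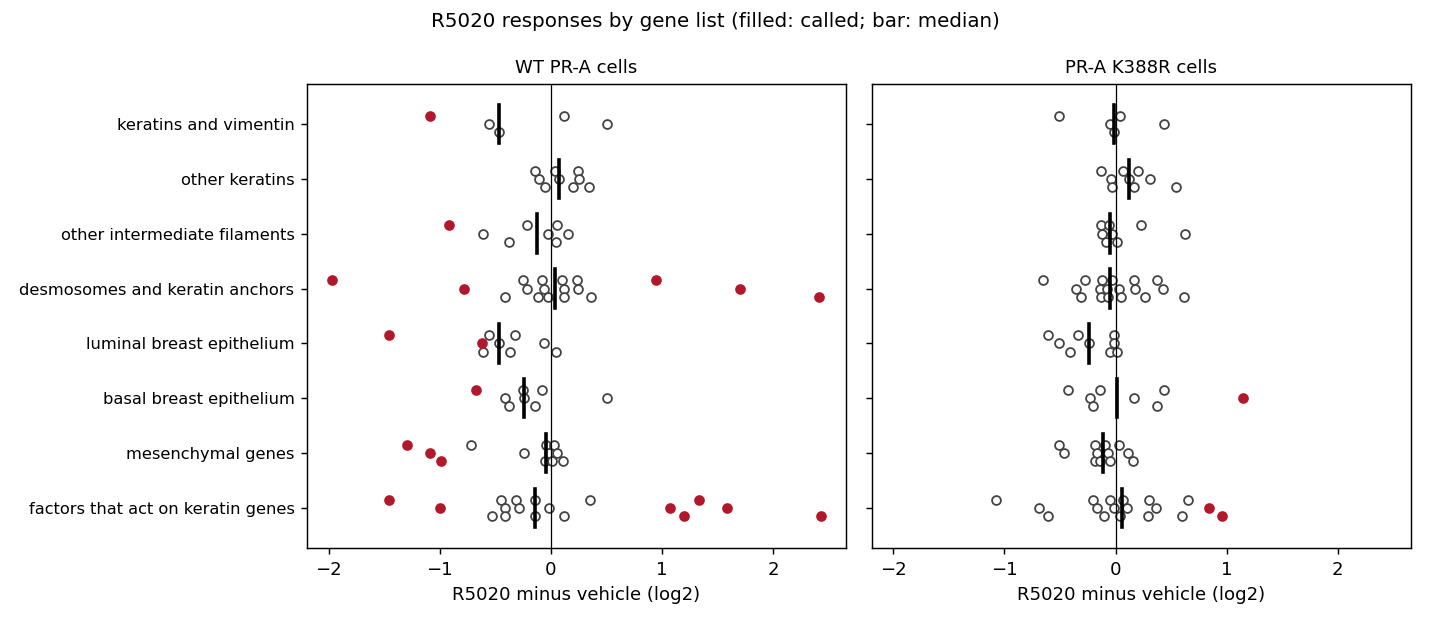
R5020 minus vehicle (x axis, log2) in WT PR-A cells (left) and PR-A K388R cells (right) for each measured gene of 8 lists, with called genes filled red and a bar at the list median. In WT PR-A cells called genes lie on both sides of 0 among the anchors and the transcription factors and below 0 among luminal and mesenchymal genes, and in PR-A K388R cells 3 genes are called, NGFR, BCL6 and STAT5A.

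Of 27 transcription factors known to act on keratin genes, 18 were measured. With R5020 in WT PR-A cells 5 rose and 2 fell. CEBPD, a C/EBP factor, rose by 2.43 (adjusted p = 2.43e-05), the repressor BCL6 by 1.59 (adjusted p = 3.33e-05), and STAT5A, which acts in the secretory breast, by 1.34 (adjusted p = 0.000109). FOXA1, also on the luminal list, fell. In PR-A K388R cells BCL6 (0.84, adjusted p = 0.00697) and STAT5A (0.96, adjusted p = 0.00446) rose and none fell. The response of CEBPD was lower in PR-A K388R than in WT PR-A cells (-1.83, adjusted p = 0.00651) and that of TFAP2A, an AP-2 factor, was higher (0.79, adjusted p = 0.0431).

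With vehicle, WT PR-A cells had 2 of these factors at a higher and 2 at a lower level against T47D-Y, including TFAP2A (0.79, adjusted p = 0.00163) and BCL6 (-1.10, adjusted p = 0.000239). BCL6 was also lower in PR-A K388R than in T47D-Y cells (-0.60, adjusted p = 0.0164), with no other factor called. Between the PR-A lines, SOX9, a factor of luminal progenitors, was higher (1.47, adjusted p = 0.03), as was MYB (0.79, adjusted p = 0.0464), and TFAP2A was lower (-0.69, adjusted p = 0.00367) in PR-A K388R cells.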

How the data were processed

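The authors processed the arrays in Partek and deposited log2 signals. The normalization and background correction are not given in the sources used here, and the table used here holds part of the array's probe sets. Symbols came from the platform's annotation, in which 12547 probe sets have 1 symbol. For a gene with several probe sets, that with the highest mean over the 10 arrays was used.

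Replicate 2 minus replicate 1, summed over the groups, was 0 for each probe set (at most 0.0003 in size), so the replicate number had been removed before deposit and was fitted as a block (4 residual and 5.62 prior degrees of freedom). This leaves the check of pairing void. The fit used limma 3.58.1 in R 4.3.3 and was tested on simulated data. Arrays have no read depth. Their number, 2 per group, limits the precision.

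The genes and lists were chosen with earlier results of these data known. Named were all members, called keratins, up to 4 called genes per list and comparison by adjusted p, progestin targets, and the 3 genes nearest to each member by r. Exceptions named after their values were seen are DSP, EPCAM, the fibroblast and leukocyte genes given by level, and the levels of TFF1, CDH3 and NGFR. The alternatives were other normalizations, filters, variance models, thresholds, no block and leaving out each array.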

Additional observations from a re-analysis of the deposited data

How the results depend on the processing

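The number of the 5 genes called did not move by more than 1.5 times under the other settings tried, with these exceptions. Unmoderated contrasts left 0 genes in the WT PR-A response, in both comparisons with T47D-Y and in the mean R5020 response, and 1 between the vehicle-treated PR-A lines. A fold of at least 2 left 0 in the mean response. Leaving out each array in turn gave 1 to 2 genes in the WT PR-A response and 1 to 2 in the mean response, and VIM stayed called in the WT PR-A response (adjusted p at most 0.0494). Without the replicate block no call of the 5 genes changed, and the probe sets called in the difference of the responses went from 241 to 526.

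Values near 0 that were not called changed sign. Quantile normalization gave KRT18 0.051 in the PR-A K388R response and -0.014 between the PR-A lines, and centring the arrays gave VIM -0.048 between them. Leaving out each array, KRT15 ranged from -0.23 to 0.46 in the WT PR-A response, -0.44 to 0.52 in the PR-A K388R response, -0.55 to 0.41 in their difference and -0.16 to 0.32 in their mean. KRT18 ranged from -0.062 to 0.034 in the PR-A K388R response, KRT5 from -0.36 to 0.23 in the difference, and VIM from -0.14 to 0.15 between the PR-A lines.

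Over all probe sets, the WT PR-A response, the PR-A K388R response, their difference, WT PR-A against T47D-Y, PR-A K388R against T47D-Y, PR-A K388R against WT PR-A and the mean response had 1049, 230, 241, 1192, 550, 1216 and 598 calls. Unmoderated contrasts gave 310, 2, 0, 378, 17, 383 and 206, a 2-fold minimum gave 471, 88, 171, 507, 208, 478 and 200, and leaving out 1 array gave at least 703, 56, 73, 808, 202, 722 and 570. Unadjusted p-values gave 405 in the PR-A K388R response and 987 in the difference, where an intensity trend gave 435 and a fit of the compared groups alone 160. The cause was not tested.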
